A study of Arabidopsis thaliana with 18 samples.

Results

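The comparison described here set the 2 libraries labelled obp1 against the 2 libraries of wild-type Col-0, 4 of the 18 RNA-seq libraries of a germination experiment in Arabidopsis thaliana. The 18 libraries came from 9 genotypes with 2 libraries each: Col-0 and 8 lines (obp1, hat2, lmi1, athb15, athb25, wrky14, vnd2 and smb), each obtained as a homozygous T-DNA knock-out of the transcription factor gene it is named for. Seed of all genotypes was sown on MS medium, kept for 48 h in the dark at 4 °C (stratification), moved to continuous light of 100 µE per m2 per s at 22 °C and frozen after 24 h in the light, a stage termed 24 h SL. Every group therefore shared the cold treatment, the light and the sampling time, and differed by genotype. The paper reports late germination for every line except hat2. Whether the groups had reached the same point of germination at 24 h SL was not tested. The obp1 line is 1 insertion allele in the Col-0 background, so a change in it cannot be told apart from a change carried by that seed stock. The question of the comparison was how the transcriptome at 24 h SL differs when the DOF factor OBP1 is disrupted. All genes with enough counts were taken, which left 19100 of the 37336 genes in the table.

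OBP1 (OBF BINDING PROTEIN 1) belongs to the DOF family of plant transcription factors, which bind DNA through a single zinc finger at sites with an AAAG core, and it is known for a role in cell cycle entry. A germinating seed at this stage leaves its stored reserves behind, greens, resumes cell division and sets its circadian clock, a loop in which CCA1 and LHY act in the morning and TOC1, GI and ELF4 in the evening. Low internal oxygen and iron supply each have a well-known set of marker genes in Arabidopsis, the first led by fermentation enzymes and the second by the Ib group of bHLH factors.

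The gene OBP1 (AT3G50410) lies at chr3:18709613-18710836 on the plus strand in TAIR10, as a single exon whose coding sequence of 762 bp spans chr3:18709872-18710633. The study resequenced the genome of every line and reported a single T-DNA insertion in each, located as predicted, with none found in Col-0. Its genotyping primers for the obp1 line are shown because they place the stretch of OBP1 examined by PCR. Each matched the genome once, and together they bound a product of 1144 bp that holds the whole coding sequence.
RP, chr3:18709699-18709719, plus strand: ctgactttcttctccatcccc
LP, chr3:18710821-18710842, minus strand: tccattcgaaatcaattaaacg

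OBP1 transcript was not reduced in the libraries labelled obp1. The raw counts were 398 and 353 in the obp1 libraries, 187 and 223 in the Col-0 libraries and between 162 and 343 in the 14 libraries of the other lines. In CPM (counts per 1000000, scaled by the library total after TMM normalization) the levels were 13.9 and 11.5 for obp1, 8.93 and 8.45 for Col-0 and 5.94 to 10.8 elsewhere. Both obp1 libraries thus lay above all 16 others. The log2 fold change against Col-0 was 0.55 ± 0.15 (SE, n = 2 against 2) with an adjusted p of 0.0262 in edgeR's quasi-likelihood test, above the threshold of 0.01 used here. Against the mean of the other 7 lines it was 0.56 ± 0.11 with an adjusted p of 0.00183 (edgeR). The counts were given per gene and do not show whether the reads cover the whole gene, so the level goes against a loss of transcript and says nothing of the protein. For that reason the samples are called the libraries labelled obp1 throughout, and no difference below is read as the effect of losing OBP1.

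**Figure D1:**
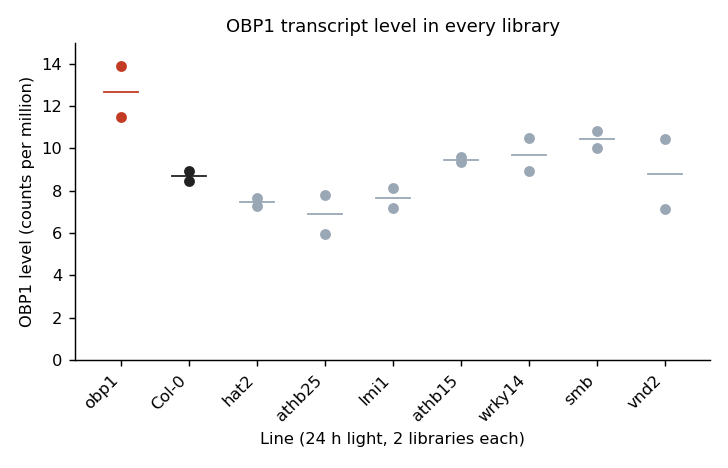
OBP1 transcript level in CPM (vertical axis) in each of the 2 libraries of Col-0 and the 8 lines (horizontal axis), with a bar at the group mean. The obp1 points at 13.9 and 11.5 CPM are the highest of the 18, and the Col-0 points at 8.93 and 8.45 CPM lie inside the range of the other lines.

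Around OBP1, 1 of the 20 nearest tested genes (chr3:18623254-18786952) was called, a share near that of all genes (3.92%), and their median log2 difference was −0.02. The called gene was MES10 (AT3G50440), a methylesterase gene that overlaps AT3G50430, so that reads of the pair may be shared. MES10 had 217 and 200 CPM in the obp1 libraries, 138 and 136 CPM in Col-0 and 129 to 177 CPM in the other lines, with no overlap (log2 fold change 0.60 ± 0.09, adjusted p 0.000556 by edgeR). Its call was lost without obp1 replicate 1 (0.55) and without Col-0 replicate 2 (0.59). On the other side, the long non-coding RNA gene AT3G08115 (chr3:18706805-18707796, minus strand) gave 13 and 12 counts in the obp1 libraries, 2 and 1 counts in Col-0 and 0 to 7 counts in the other lines. The obp1 counts were the highest of the 18, and the difference from Col-0 did not pass (adjusted p 0.0557 by edgeR).

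The obp1 libraries held 28722758 and 31153310 counts and the Col-0 libraries 20692809 and 26112879, within a range of 18146206 to 33111743 over the 18. The biological coefficient of variation over all genes was 5.87%. No pair of replicates agreed to within sampling noise, and replicate levels correlated across genes with r between 0.993 and 0.995. The 10 most counted genes took 9.23% and 8.63% of the obp1 counts, 7.37% and 7.21% of the Col-0 counts and 7.17% to 8.71% of the others. RNA was extracted in duplicate from seed of several parent plants, and nothing says whether the duplicates were separate seed lots, so the p-values measure the spread between duplicates, which may be technical.

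Against Col-0, 748 of 19100 genes (3.92%) passed an adjusted p of 0.01 in edgeR's quasi-likelihood test. Of these, 479 (2.51% of the genes tested) were higher in the libraries labelled obp1 and 269 (1.41%) were lower. Most differences were small: the median was 0.51 for the genes that rose, with quartiles of 0.39 and 0.73, and −0.43 for those that fell, with quartiles of −0.58 and −0.35. At least a 2-fold difference was met by 66 genes, 47 higher and 19 lower. The median over all genes tested was −0.02. Calls were spread over the 5 nuclear chromosomes at 3.59% to 4.48% of the genes tested on each. The number of calls rested on having 4 libraries: it was 170 without obp1 replicate 1, 286 without obp1 replicate 2, 164 without Col-0 replicate 1 and 207 without Col-0 replicate 2.

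Both obp1 libraries lay outside the range of the other 16 for 1401 genes (7.34%), above it for 683 and below it for 718. Among the 748 calls this held for 364, and for 153 calls it was both Col-0 libraries that lay outside the range of the other 16. Over all genes tested the Col-0 libraries did so for 757 (3.96%). For 44 calls both statements were true and for 275 neither was. Calls are picked for a difference between obp1 and Col-0, which by itself raises both counts. The obp1 libraries were also set against the mean of the other 7 lines, a contrast without the Col-0 libraries, where 1126 genes (5.9%) were called, 795 higher and 331 lower. Set against hat2 alone, 26 genes (0.136%) were called, 19 higher and 7 lower, and 1911 had an unadjusted p under 0.05 (edgeR). The hat2 line was chosen because its libraries were most like those labelled obp1 in earlier results of these data. A low count therefore follows from the choice. Against the remaining lines taken singly, the calls numbered 252 (athb25), 338 (lmi1), 394 (athb15), 824 (wrky14), 1333 (smb) and 1818 (vnd2). These contrasts share the obp1 libraries with the comparison against Col-0, so each is given by its own values.

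**Figure D2:**
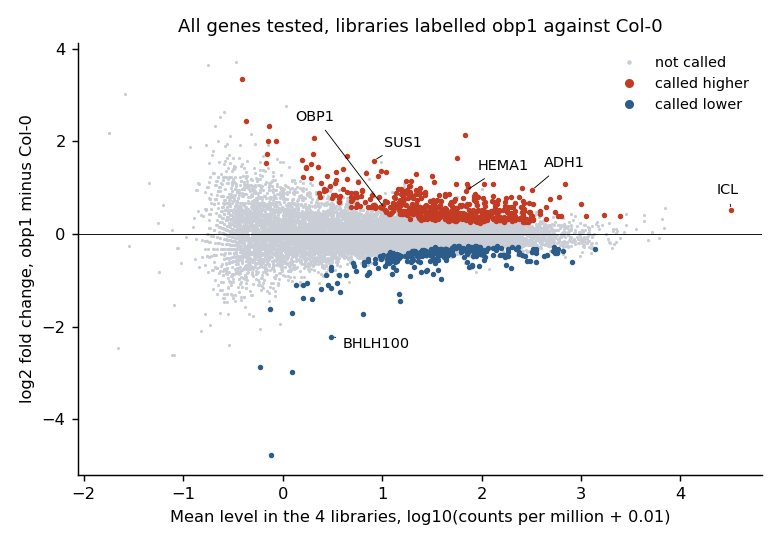
Log2 fold change of the libraries labelled obp1 over Col-0 (vertical axis) against the mean level in the 4 libraries as log10(CPM + 0.01) (horizontal axis), 1 point per gene tested, coloured where the adjusted p was under 0.01. The 479 genes called higher and 269 called lower lie mostly within 1 log2 unit of the line at 0, with the iron gene BHLH100 among the lowest.

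A large group of the genes that rose was photosynthetic. Over 6 lists (photosystem core subunits, light-harvesting antenna with the Rubisco small subunit, electron carriers with ATP synthase, Calvin cycle, photorespiration and chlorophyll synthesis) 55 of 109 nuclear genes tested rose and 0 fell, beside 2.51% and 1.41% of all genes. Their median log2 difference was 0.48, beside −0.02 over all genes, and 107 of the 109 values were above 0. The Calvin cycle, photorespiration and electron carrier lists were added after their values had been seen. They held 8, 7 and 5 of the 55 rises, and their part of the total is no independent evidence. The remaining lists were chosen with earlier results of these data known, so their part is not independent either. Against the mean of the other 7 lines 61 of the 109 rose, beside 795 of 19100 genes. Against hat2 none of the 109 was called at an adjusted p of 0.01, which does not show that the 2 lines were alike. In whole seed, more cells of a type and more RNA per cell cannot be told apart.

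For the photosystem core, 18 of 22 genes rose and 0 fell, with a median of 0.68 and all values between 0.41 and 1.36. PSAE-1, a stromal subunit of photosystem I, read 22.6 and 24.7 CPM in the obp1 libraries, 12.8 and 12.9 CPM in Col-0 and 9.43 to 21.4 CPM in the other lines (0.87 ± 0.12, adjusted p 0.000141 by edgeR). Its obp1 values lay above all other libraries, which held for 5 of the 22 genes. PSBO1, which encodes the oxygen-evolving complex protein of photosystem II, read 318 and 336 CPM in the obp1 libraries against 197 and 200 CPM in Col-0, while the other lines ranged from 136 to 320 CPM (0.72 ± 0.11, adjusted p 0.000505 by edgeR). Here hat2 replicate 1, at 320 CPM, overlapped the obp1 libraries. PSAH-1, another photosystem I subunit, read 16.9 and 20.9 CPM against 8.6 and 10.7 CPM in Col-0 (0.96 ± 0.16, adjusted p 0.00108 by edgeR). The summed level of the list was 2246 and 2414 CPM for obp1, 1571 and 1561 CPM for Col-0, 2247 and 1992 CPM for hat2 and 1166 to 2107 CPM for the remaining lines. One library of hat2 therefore overlapped the obp1 libraries, and Col-0 lay inside the range of the other lines. Calls in the list numbered 10 without obp1 replicate 1, 6 without obp1 replicate 2, 5 without Col-0 replicate 1 and 7 without Col-0 replicate 2, while the median stayed between 0.65 and 0.74.

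In the antenna and Rubisco small subunit list 10 of 22 genes rose, 0 fell and all 22 values were above 0, with a median of 0.78. LHCB3, an antenna protein of photosystem II, read 45.7 and 44.7 CPM against 17.7 and 20.0 CPM in Col-0 and 10.6 to 42.8 CPM in the other lines (1.26 ± 0.18, adjusted p 0.000254 by edgeR). LHCA4, an antenna protein of photosystem I, read 106 and 115 CPM against 59.6 and 62.3 CPM in Col-0 and 52.8 to 104 CPM elsewhere (0.86 ± 0.09, adjusted p 2.52e-05 by edgeR). For both genes the obp1 libraries were the highest of the 18, which held for 4 of the 22 in the list. Summed over the list, the level was 4667 and 5210 CPM for obp1 and 3339 and 3602 CPM for Col-0. The other lines ranged from 2525 to 4971 CPM and so overlapped the obp1 libraries. CAB1 and RBCS1B were called as well, at 1.09 and 1.14. RBCS1A, the major Rubisco small subunit gene, had 3068 and 3388 CPM against 2306 and 2499 CPM in Col-0, a difference of 0.43 ± 0.15 that did not pass (adjusted p 0.0725 by edgeR). Antenna and small subunit genes have close copies whose reads the counting could share. With only the 4 libraries fitted 16 of the 22 rose. Calls in this list fell to 7 and 4 without the first and second obp1 replicate, and to 3 and 4 without the first and second Col-0 replicate.

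Carbon fixation and photorespiration genes followed, in lists added after their values had been seen, as was the electron carrier list. In the Calvin cycle 8 of 17 genes rose and 0 fell (median 0.39). PRK, phosphoribulokinase, read 175 and 161 CPM in the obp1 libraries, 96.1 and 93.1 CPM in Col-0 and 74.5 to 156 CPM in the other lines (0.83 ± 0.09, adjusted p 2.16e-05 by edgeR). The Rubisco activase gene RCA read 596 and 623 CPM against 354 and 365 CPM (0.76 ± 0.09, adjusted p 6.87e-05 by edgeR). GAPA, GAPA-2, GAPB, SBPASE, RPE and AT3G54050, a chloroplast fructose bisphosphatase gene, were called between 0.48 and 0.70. PGK1 at 0.13 and AT1G56190, a second phosphoglycerate kinase gene, at −0.03 were not. Of 16 photorespiration genes tested 7 rose and 0 fell (median 0.35), among them the peroxisomal aminotransferase genes GGT1 (AT1G23310) at 0.68 and AGT at 0.70 and the hydroxypyruvate reductase gene HPR at 0.48. Each single library left out brought the photorespiration count to 3. The electron carrier and ATP synthase list had 5 of 9 genes higher and 0 lower (median 0.45), and 2 to 3 calls with a library left out.

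In chlorophyll synthesis 7 of 23 genes rose and 0 fell, with a median of 0.23 and all 23 values above 0. HEMA1 (chr1:21623700-21626402), glutamyl-tRNA reductase at the entry of tetrapyrrole synthesis, had the smallest p of all genes tested. It read 90.9 and 92.1 CPM in the obp1 libraries, 48.6 and 47.3 CPM in Col-0 and 45.5 to 79.2 CPM in the other lines, a log2 fold change of 0.93 ± 0.06 with an adjusted p of 3.58e-08 (edgeR). GUN5, the H subunit of magnesium chelatase, read 338 and 344 CPM against 165 and 177 CPM and 142 to 307 CPM elsewhere (1.00 ± 0.10, adjusted p 9.23e-06 by edgeR). The obp1 libraries were the highest of the 18 for both genes and did not overlap any other line, which held for 4 of the 23 genes. The remaining calls were CRD1 at 0.49, PORB at 0.34, CHLD (AT1G08520) at 0.28, CHLG and CAO (AT1G44446, chlorophyllide a oxygenase) at 0.58. GUN4, a regulator of the same chelatase, had only 6 to 15 counts a library in the 4 libraries and was not called. The count of calls was 3 without obp1 replicate 1 or Col-0 replicate 1 and 4 without either of the second replicates.

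Among light signalling genes 5 of 22 rose and 0 fell (median 0.14), beside 2.51% and 1.41% of all genes. These were ELIP1 and ELIP2, early light-induced proteins, the B-box gene STH, the HY5 homologue HYH and the blue-light receptor CRY1. ELIP1 read 131 and 159 CPM in the obp1 libraries, 67.6 and 69.5 CPM in Col-0 and 54.5 to 151 CPM elsewhere (1.08 ± 0.12, adjusted p 2.55e-05 by edgeR). STH read 23.1 and 23.7 CPM against 11.3 and 12.7 CPM (0.96 ± 0.13, adjusted p 0.00016 by edgeR). The ELIP1 groups did not overlap, yet the other lines reached above the lower obp1 library. The phytochrome genes PHYA, PHYB and PHYC differed by 0.11, −0.02 and 0.02, and HY5 by 0.07, none of them called. The 5 calls were 3 without either obp1 replicate and 2 without either Col-0 replicate.

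**Figure D3:**
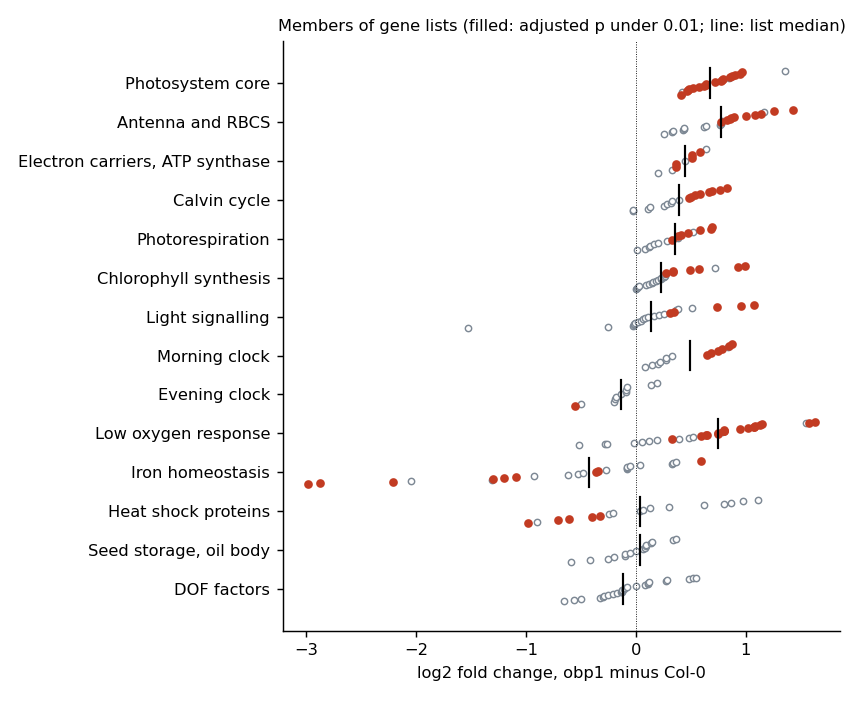
Log2 fold change of the libraries labelled obp1 over Col-0 (horizontal axis) for each tested member of the gene lists on the vertical axis, filled where the adjusted p was under 0.01, with a line at the list median. The photosystem core and the antenna lists lie wholly above 0 with medians of 0.68 and 0.78, and the iron list reaches −2.98.

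Morning clock genes were higher in the libraries labelled obp1. Of 14 genes 6 rose and 0 fell, beside 2.51% and 1.41% of all genes. All 14 values were above 0, with a median of 0.49. CCA1 read 49.7 and 47.0 CPM in the obp1 libraries, 24.7 and 28.7 CPM in Col-0 and 25.3 to 47.1 CPM in the other lines (0.85 ± 0.10, adjusted p 4.4e-05 by edgeR). LHY read 235 and 209 CPM against 126 and 131 CPM and 107 to 214 CPM elsewhere (0.79 ± 0.09, adjusted p 4.98e-05 by edgeR). The upper end of the other lines was a hat2 library for both, overlapping the lower obp1 library. The related MYB genes RVE8 at 0.65, RVE4 (AT5G02840) at 0.75 and RVE1 at 0.88 and the co-activator LNK2 (AT3G54500) at 0.68 made up the other calls. Summed over the list, the level was 606 and 553 CPM in the obp1 libraries, 376 and 378 CPM in Col-0, 565 and 498 CPM in hat2 and 387 to 459 CPM in the remaining lines, so both Col-0 libraries were the lowest of the 18. Against the mean of the other 7 lines 6 of the 14 rose, with a median of 0.20, beside 795 of 19100 genes. PRR9 and PRR7, which follow CCA1 in the day, differed by 0.33 and 0.09 and were not called. Calls numbered 4 to 6 with a library left out.

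Evening clock genes gave 0 rises and 1 fall of 11 (median −0.14), beside 2.51% and 1.41% of all genes. The gene that fell was ELF4, a member of the evening complex. It read 39.8 and 31.5 CPM in the obp1 libraries, 55.1 and 49.8 CPM in Col-0 and 29.3 to 79.7 CPM in the other lines (−0.55 ± 0.12, adjusted p 0.00796 by edgeR). Its obp1 values sat inside the range of the other lines, and the call was lost whichever of the 4 libraries was left out, with a replicate block and with an offset on GC content and exon length. TOC1 differed by −0.08 and GI by −0.19, neither called. None of the 10 tested clock output and cold genes was called.

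Promoter windows of called members of the morning clock, photosystem core, antenna and iron lists are printed. The windows run from 250 bases before to 50 after the RefSeq start site (TAIR10.1) and were found for 19028 of the genes tested. CACGTG (the G-box, the same on both strands) and GATAAG (the I-box core, on either strand) are in capitals. The genes were picked by sequence: each is the called gene of smallest p in its list whose window holds CACGTG. For the photosystem list the window had to hold GATAAG as well. That all of them share CACGTG therefore follows from the choice.
CCA1 (morning clock), chr2:19245341-19245640, plus strand: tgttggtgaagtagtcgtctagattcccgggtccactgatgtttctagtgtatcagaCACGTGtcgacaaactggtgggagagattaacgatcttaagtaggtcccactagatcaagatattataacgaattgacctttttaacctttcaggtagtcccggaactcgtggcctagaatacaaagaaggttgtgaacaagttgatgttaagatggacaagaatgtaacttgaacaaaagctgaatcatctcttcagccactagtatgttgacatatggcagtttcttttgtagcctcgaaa
PSAH-1 (photosystem I), chr3:5469545-5469844, minus strand: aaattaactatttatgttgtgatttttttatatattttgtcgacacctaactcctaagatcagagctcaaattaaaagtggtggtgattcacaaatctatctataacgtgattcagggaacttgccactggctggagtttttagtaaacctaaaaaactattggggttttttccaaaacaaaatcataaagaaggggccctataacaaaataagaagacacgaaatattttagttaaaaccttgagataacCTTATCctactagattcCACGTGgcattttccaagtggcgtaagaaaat
LHCA4 (antenna), chr3:17494984-17495283, minus strand: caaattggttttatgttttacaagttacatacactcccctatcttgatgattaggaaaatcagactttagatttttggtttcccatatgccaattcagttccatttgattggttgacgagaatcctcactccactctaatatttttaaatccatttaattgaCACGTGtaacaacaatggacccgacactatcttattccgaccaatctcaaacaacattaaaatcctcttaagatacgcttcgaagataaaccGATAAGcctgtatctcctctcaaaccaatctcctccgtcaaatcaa
BHLH100 (iron), chr2:17199405-17199704, minus strand: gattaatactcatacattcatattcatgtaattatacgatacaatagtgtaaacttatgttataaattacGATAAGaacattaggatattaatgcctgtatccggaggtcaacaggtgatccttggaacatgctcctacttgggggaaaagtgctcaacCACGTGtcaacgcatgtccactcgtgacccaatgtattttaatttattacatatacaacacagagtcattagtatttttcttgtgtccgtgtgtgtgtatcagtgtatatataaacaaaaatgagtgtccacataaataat

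CACGTG occurred in 9.16% of all 19028 windows, in 13.6% of those of genes that rose and in 12.3% of those of genes that fell. In the morning clock list 10 of 14 windows held it, in the photosystem core 10 of 22, in the iron list 8 of 24, in the antenna list 5 of 22 and in the low oxygen list 3 of 30 and in the chlorophyll list 2 of 23. GATAAG occurred in 14.8% of all windows, in 20.9% for the genes that rose and in 12.3% for those that fell, and in 11 of 22 photosystem core, 8 of 22 antenna, 6 of 23 chlorophyll synthesis, 6 of 30 low oxygen, 3 of 24 iron and 1 of 14 morning clock windows. The AAAG core that DOF proteins bind (searched on both strands, so also as CTTT) was found in 99.2% of all windows, 98.7% for genes that rose and 99.3% for genes that fell, at a mean of 5.03, 4.83 and 5.11 copies. So short a core is present in nearly every window and does not separate the groups. A match is a run of letters, not a bound site.

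Low oxygen genes rose as well. In a list added after values had been seen, 18 of 30 tested genes rose and 0 fell, beside 2.51% and 1.41% of all genes. The list median was 0.75, and for 12 of the 30 both obp1 libraries lay above all 16 others, beside 683 of 19100 genes. ADH1, alcohol dehydrogenase, read 422 and 420 CPM in the obp1 libraries, 219 and 219 CPM in Col-0 and 207 to 363 CPM in the other lines (0.95 ± 0.09, adjusted p 8.2e-06 by edgeR). Its locus overlaps AT1G77122. PDC1 (AT4G33070), pyruvate decarboxylase, the step before it in ethanol fermentation, read 95.3 and 96.8 CPM against 45.5 and 44.8 CPM and 36.0 to 94.6 CPM elsewhere (1.09 ± 0.15, adjusted p 0.000181 by edgeR). Duplicates of these genes differed far less than the groups, and the Col-0 libraries stood near the low end of the lines.

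SUS1, a sucrose synthase gene, read 12.6 and 12 CPM in the obp1 libraries against 3.87 and 4.32 CPM in Col-0 and 3.6 to 10.2 CPM in the other lines (1.58 ± 0.16, adjusted p 9.55e-06 by edgeR). HB1, the hypoxia-induced haemoglobin, read 309 and 300 CPM against 175 and 176 CPM (0.80 ± 0.10, adjusted p 9.39e-05 by edgeR). AT4G33560, annotated as a wound-responsive family protein, read 92.8 and 79.5 CPM against 30.1 and 25.7 CPM (1.63 ± 0.16, adjusted p 1.04e-05 by edgeR). Each of the 3 was higher in both obp1 libraries than in any other. Regulators in the list rose too: the ERF factor HRE2 (AT2G47520) at 0.75, the LOB-domain factor LBD41 at 1.02 and the cysteine oxidases PCO1 (AT5G15120) at 0.33 and PCO2 (AT5G39890) at 0.75, which in the plant mark ERF factors for breakdown when oxygen is present. HRE1, NAC102 and PFK6 differed by −0.02, −0.28 and 0.06 and CML38 by 1.55 (adjusted p 0.013 by edgeR), none called.

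Summed over the list, the level was 4900 and 4744 CPM in the obp1 libraries, 2972 and 2790 CPM in Col-0 and 3185 to 4245 CPM in the other lines, so that the groups fell in 3 separate ranges. Against the mean of the other 7 lines 13 of 30 rose and 0 fell, with a median of 0.44, beside 795 and 331 of 19100 genes. Against hat2 none was called (median 0.32). Calls against Col-0 numbered 9 without obp1 replicate 1, 12 without obp1 replicate 2, 10 without Col-0 replicate 1 and 9 without Col-0 replicate 2, with medians of 0.67 to 0.82.

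**Figure D4:**
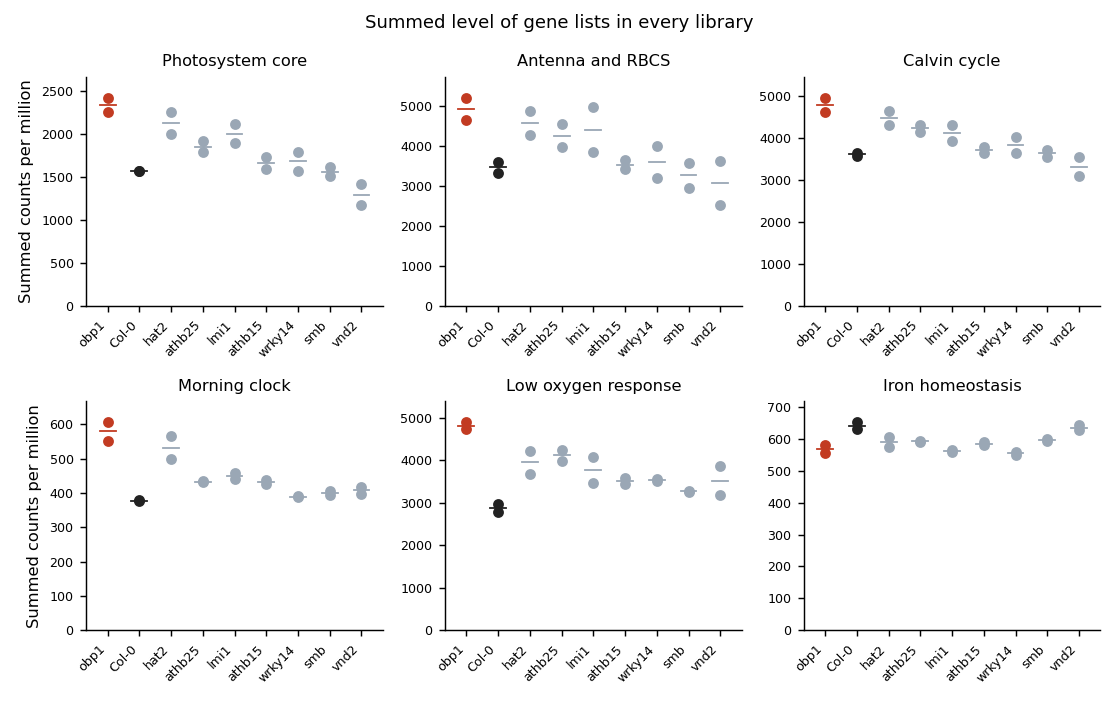
Summed level in CPM (vertical axes) of 6 gene lists in each of the 2 libraries of every genotype (horizontal axes), with a bar at the group mean. For the low oxygen list the obp1 points at 4900 and 4744 CPM are above all others and the Col-0 points at 2972 and 2790 CPM below, whereas for the photosystem core a hat2 point at 2247 CPM reaches the obp1 points.

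Iron deficiency genes were lower in the libraries labelled obp1 than in Col-0. Of 24 iron homeostasis genes tested 8 fell and 1 rose, beside 1.41% and 2.51% of all genes, with a median of −0.42. With a minimum mean of 50 counts, which leaves 18 of them, 6 fell and the median was −0.17. BHLH100, an Ib bHLH factor induced when iron is short, gave 25 and 39 counts in the obp1 libraries and 114 and 122 in Col-0. This was 0.872 and 1.27 CPM against 5.44 and 4.62 CPM, with 1.19 to 4.04 CPM in the other lines (−2.21 ± 0.24, adjusted p 2.55e-05 by edgeR). BHLH39 had 10 and 6 counts against 51 and 51 (−2.98 ± 0.40, adjusted p 0.00016 by edgeR) and BHLH38 4 and 4 counts against 24 and 24 (−2.87 ± 0.42, adjusted p 0.000339 by edgeR). For these 3 factors the Col-0 libraries were the highest of the 18 or close to it, and the obp1 values touched the low end of the other lines.

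AT1G47395, the gene of the small iron-deficiency peptide IMA2, read 8.23 and 8.82 CPM against 21.1 and 21.0 CPM in Col-0 and 8.29 to 18.5 CPM elsewhere (−1.30 ± 0.15, adjusted p 4.5e-05 by edgeR). Its neighbour IMA1 (AT1G47400), the nicotianamine synthase gene NAS4, the ferric reductase gene FRO3 and BTS, a ubiquitin ligase gene that restrains the response, fell by 1.09, 1.2, 0.35 and 0.36 on the log2 scale. FER1, the iron storage protein ferritin, rose: 38.9 and 43.0 CPM against 24.4 and 29.7 CPM in Col-0 (0.59 ± 0.12, adjusted p 0.00488 by edgeR), inside the 20.0 to 56.0 CPM of the other lines. In the contrast that does not use Col-0, against the mean of the other 7 lines, 1 of the 24 genes fell and 0 rose (median −0.16). Over all 19100 genes 331 fell and 795 rose in that contrast. The 8 falls against Col-0 were 4 without obp1 replicate 1, 6 without obp1 replicate 2, 5 without Col-0 replicate 1 and 4 without Col-0 replicate 2, and the 1 rise was lost in all of these but the last.

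In the heat shock list 5 of 17 genes fell and 0 rose, beside 1.41% and 2.51% of all genes, while 9 of the 17 values were above 0. The 5 encode chaperones of the HSP70 and HSP90 families, and none of the small heat shock protein genes was called. HSP70-2 (AT5G02490) read 28.3 and 24.0 CPM in the obp1 libraries, 53.6 and 49.6 CPM in Col-0 and 25.1 to 44.4 CPM in the other lines (−0.98 ± 0.08, adjusted p 3.17e-06 by edgeR). HSP90.1 read 16 and 15.8 CPM against 27.8 and 24.4 CPM and 17.8 to 38.3 CPM elsewhere (−0.71 ± 0.10, adjusted p 0.000254 by edgeR). The Col-0 libraries were the highest of all for HSP70-2, and the obp1 libraries the lowest of all for HSP90.1. HSP70 (AT3G12580), AT3G09440 and HSP90.2 fell by 0.61, 0.40 and 0.33 on the log2 scale. The list median was 0.04 and changed sign with the setting, to −0.23 with a higher count minimum and −0.22 without obp1 replicate 2. Falls numbered 2 without obp1 replicate 1 and 3 without obp1 replicate 2 or Col-0 replicate 1.

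Ribosomal protein genes were called about as often as other genes in total, and their values leaned lower. Of 312 tested genes whose annotated product names a ribosomal protein, a group formed after values had been seen, 12 fell and 1 rose. That is 4.17% called, beside 3.92% of all genes (1.41% lower and 2.51% higher). Of the 312 values 238 were below 0, with a median of −0.11 beside −0.02. For 59 of them both obp1 libraries lay below all 16 others, beside 718 of 19100 genes. RPSAb, a small-subunit protein gene picked as an example after its values were seen, read 28.7 and 29.5 CPM in the obp1 libraries, 44.1 and 42.2 CPM in Col-0 and 32.6 to 44.6 CPM in the other lines (−0.57 ± 0.07, adjusted p 8.09e-05 by edgeR). Many of these genes have near-identical copies, and 30.6% of all calls overlap another annotated locus, beside 31.5% of the genes tested.

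**Figure D5:**
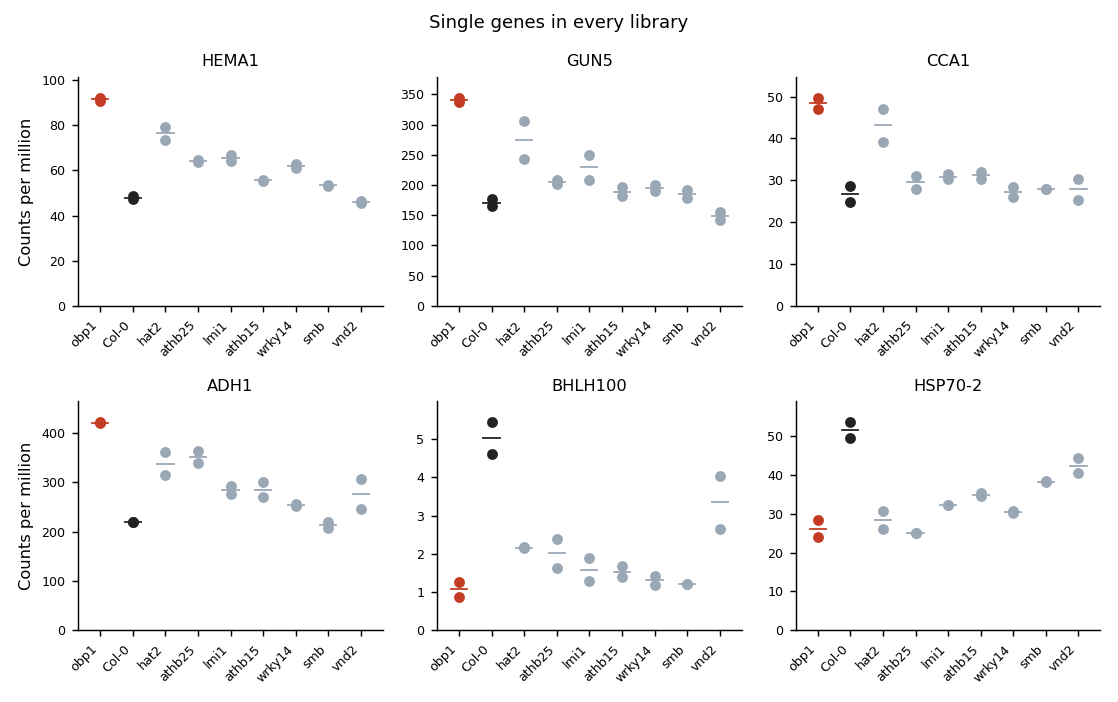
Level in CPM (vertical axes) of HEMA1, GUN5, CCA1, ADH1, BHLH100 and HSP70-2 in each of the 2 libraries of every genotype (horizontal axes), with a bar at the group mean. The obp1 points are the highest of the 18 for HEMA1 (90.9 and 92.1 CPM) and ADH1 (422 and 420 CPM), and the Col-0 points are the highest for BHLH100 (5.44 and 4.62 CPM) and HSP70-2 (53.6 and 49.6 CPM).

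DOF and cell cycle genes, the groups nearest to the known roles of OBP1, were examined next. Of 26 tested DOF genes 0 rose and 0 fell (median −0.11), beside 2.51% and 1.41% of all genes. With no filter on low counts 3 rose and 1 fell, with only the 4 libraries fitted 1 rose, and the median moved to −0.16 without obp1 replicate 1, −0.02 without obp1 replicate 2, −0.01 without Col-0 replicate 1 and −0.23 without Col-0 replicate 2. OBP4 had 494 and 399 counts against 210 and 302 counts (0.48 ± 0.14, adjusted p 0.0317 by edgeR), and DOF6, a repressor of germination, had 3.03 and 3.81 CPM against 6.16 and 4.74 CPM (−0.65 ± 0.17, adjusted p 0.0205 by edgeR). These groups did not overlap, and neither gene passed. At an adjusted p of 0.05 both would, and DAG1 (−0.57, adjusted p 0.0815 by edgeR) would not. GSTF8 and the OBF/TGA bZIP partners for which OBP1 is named, 8 genes together, differed from Col-0 by −0.14 to 0.13, with no call. Against the mean of the other 7 lines 1 of the 8 was called lower, beside 331 of 19100 genes.

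The cell cycle lists gave 2 calls in all, a share near that of all genes (3.92%). Among 9 D-type cyclin genes CYCD3;2 rose, at 151 and 159 CPM against 128 and 126 CPM (0.29 ± 0.06, adjusted p 0.00457 by edgeR), within the 128 to 174 CPM of the other lines, and its call was lost with any library left out. CYCD3;3 and the other members were not called. Of 23 S phase genes 21 had values below 0 (median −0.14), beside 10216 of 19100 genes (median −0.02). The 1 that fell was TSO2, a ribonucleotide reductase subunit gene, at 67.4 and 75.1 CPM against 93.8 and 99.2 CPM (−0.44 ± 0.06, adjusted p 0.000339 by edgeR). Without obp1 replicate 1 this call was lost too. None of 18 mitotic genes (median −0.13) or 9 CDK inhibitor genes (median −0.13) was called. Against the mean of the other 7 lines the medians were −0.03 for S phase, 0.18 for mitotic and −0.01 for CDK inhibitor genes. Summed S phase levels were 705 and 734 CPM for obp1, 777 and 819 CPM for Col-0 and 717 to 798 CPM for the other lines.

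Reserve genes separated the libraries labelled obp1 from hat2 but not from Col-0. Of 16 seed storage and oil body genes none was called against Col-0 (median 0.04). Against hat2 8 were higher (median 1.12), beside 19 of 19100 genes. Summed over the list, the level was 2190 and 2548 CPM in the obp1 libraries and 2412 and 1978 CPM in Col-0. The hat2 libraries, at 1059 and 972 CPM, were the lowest of the 18. The median against Col-0 changed sign, to −0.13 without obp1 replicate 2, −0.25 without Col-0 replicate 2 and −0.02 at a minimum mean of 50 counts, and was 0.06 without obp1 replicate 1 and 0.17 without Col-0 replicate 1. With only the 4 libraries fitted 2 of the 15 then tested fell. The albumin gene SESA5 read 78.3 and 114 CPM in the obp1 libraries, 127 and 55.0 CPM in Col-0 and 7.04 and 15.6 CPM in hat2, within a range of 7.04 to 746 CPM over the other lines. The cruciferin gene CRU3 read 532 and 653 CPM against 530 and 393 CPM in Col-0 and 199 and 199 CPM in hat2 (1.57 ± 0.23 against hat2, adjusted p 0.00227 by edgeR). The obp1 and Col-0 values overlapped for both genes, the Col-0 duplicates of SESA5 differed more than the groups did, and a hat2 library held the lowest value of the 18. The vacuolar aquaporin gene TIP3;1 at 1.85 and the storage protein gene PAP85 at 1.68 followed against hat2, and HAT2 itself was higher than in the line named for it by 0.80 ± 0.12.

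Of 16 late embryogenesis abundant genes 2 fell against Col-0 and 0 rose (median −0.30), beside 1.41% and 2.51% of all genes. ECP63 read 153 and 146 CPM against 269 and 229 CPM (−0.74 ± 0.14, adjusted p 0.00284 by edgeR) and AT3G15670 read 624 and 655 CPM against 964 and 971 CPM (−0.60 ± 0.11, adjusted p 0.00189 by edgeR). With only the 4 libraries fitted 7 of the 16 fell and 1 rose, and the DESeq2 Wald test gave 4 falls. Neither was called without obp1 replicate 1, obp1 replicate 2 or Col-0 replicate 1. In the storage lipid and glyoxylate list 2 of 17 rose, beside 2.51% of all genes. ICL, isocitrate lyase, was among them at 38103 and 38312 CPM against 27182 and 26338 CPM in Col-0. The other lines ranged from 26562 to 37930 CPM (0.51 ± 0.09 against Col-0, adjusted p 0.00108 by edgeR). Both ICL and the second gene that rose, PMDH2, lost their calls without either Col-0 replicate. Cell wall loosening genes gave 3 falls of 28 (median −0.18), beside 1.41% of all genes. These were EXPA15 by 0.50, XTH9 by 0.55 and XTH15 by 0.72 on the log2 scale. No library left out kept all 3, with 0 falls left without obp1 replicate 1. Against the mean of the other 7 lines 6 of the 28 were higher and 1 lower, with a median of 0.02, beside 795 and 331 of 19100 genes.

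The seed label was checked against markers. Of 7 endosperm markers 4 had enough counts to be tested, and 3 at a minimum mean of 50 counts. The summed level of the 4 was high in all 18 libraries, and none was called. All 4 log2 differences were above 0, with a median of 0.39 against Col-0 (0.13 without obp1 replicate 1) and 0.35 against the other 7 lines. The summed level was 12632 and 7405 CPM for obp1, 7752 and 6454 CPM for Col-0 and 5548 to 10415 CPM for the other lines. Most of it came from the extensin-like gene EPR1 (AT2G27380), at 10829 and 5708 CPM against 6199 and 4966 CPM, and the 2 obp1 libraries differed more from each other than the groups did. The summed root cap and root meristem markers were 108 and 108 CPM against 115 and 119 CPM, with 100 to 115 CPM elsewhere. The summed shoot meristem markers were 27.0 and 26.2 CPM against 32.0 and 27.0 CPM. Of 6 pollen markers 1 had enough counts to be tested, and it stayed under 2 CPM in every library. The part of tissue make-up in the differences above was not tested.

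The largest single rises and falls had mixed annotation. AT2G44798, a long non-coding RNA gene overlapping AT2G44800, led the rises at 2.13 ± 0.38 (adjusted p 0.00197 by edgeR), but its duplicates were far apart, 143 and 80.2 CPM against 22.4 and 28.2 CPM, and the call was lost without obp1 replicate 1 or without either Col-0 replicate. FSD1, iron superoxide dismutase, rose from 11.8 and 13.6 CPM in Col-0 to 32.8 and 30.1 CPM (1.30 ± 0.13, adjusted p 9.24e-06 by edgeR). LOL1, a zinc finger regulator of cell death, read 13.8 and 14.5 CPM against 5.06 and 5.95 CPM (1.35 ± 0.12, adjusted p 3.27e-06 by edgeR). FSD1 and LOL1 kept their calls with any library left out, and so did the chloroplast genes CaS, a calcium sensor at 1.04, and CHUP1, needed for chloroplast positioning, at 0.71. For all 4 the obp1 libraries were the highest of the 18.

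Among the falls, RD22, a dehydration-responsive BURP-domain gene, read 2.02 and 2.44 CPM in the obp1 libraries and 5.11 and 5.46 CPM in Col-0, with 1.98 to 4.07 CPM in the other lines (−1.24 ± 0.15, adjusted p 5.1e-05 by edgeR). The lipid transfer gene LTP3 read 0.767 and 1.01 CPM against 1.96 and 2.61 CPM and lay below every other library, though its call (−1.37 ± 0.28, adjusted p 0.0044 by edgeR) was lost with any library left out. AT5G33395 fell by 1.72 on the log2 scale, with 3.14 and 2.80 CPM against 9.84 and 9.74 CPM, in a range of 2.54 to 23.2 CPM over the other lines. For RD22 it was Col-0 that stood apart from the rest, and for LTP3 it was obp1.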

How the data were processed

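RNA was measured by poly(A)-selected, stranded RNA-seq of germinating seed, 2 libraries for each of 9 genotypes. The authors deposited a table of raw counts per gene for the 18 libraries, on TAIR10, and the submitters' processing notes name Trim Galore 0.4.2, HISAT2 2.0.5 and featureCounts 1.5.1. The strand setting of the counting is not given in the sources used here, so overlapping and antisense genes are uncertain. Groups were taken from the library labels.

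Counts were tested with edgeR 4.0.16 in R 4.3.3 (filterByExpr, TMM, quasi-likelihood fit of all 18 libraries by genotype), with Benjamini-Hochberg adjustment over the 19100 genes tested and a call at an adjusted p under 0.01. SE is the log2 fold change divided by the root of F. CPM uses TMM-scaled library totals. DESeq2 1.42.0 was one alternative, and the procedure was tested on simulated counts. Depth of 18146206 to 33111743 counts per library gives calls down to a few counts per gene. The SE includes the spread between duplicates as estimated by the fit of all 18 libraries. Of 37336 gene identifiers 37051 matched RefSeq by locus. Promoter sequences are from RefSeq (TAIR10.1). Primer sequences are those of the study. Figures were drawn with matplotlib 3.10.9 from tables made with pandas 2.3.3.

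Named genes were OBP1, its 10 tested neighbours on each side, the 15 largest rises and falls among calls with at least 1 CPM and no overlap, the 10 smallest p-values, the 5 largest of each direction in the other contrasts, and members of the lists. The comparison and 29 lists were chosen with earlier results of these data known, and 5 lists (low oxygen, xylem, Calvin cycle, photorespiration, electron carriers) and the ribosomal protein group after values were seen. Alternatives were leaving low counts in, a minimum mean count of 50, the DESeq2 Wald test or its size factors, only the groups compared, a replicate block, a GC and length offset, other thresholds and each library left out.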

Additional observations from a re-analysis of the deposited data

How the results depend on the processing

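Against Col-0 the 748 calls became 1635 with no filter on low counts, 1996 at an adjusted p of 0.05 (53.8% of them higher, beside 64.0%) and 66 at a 2-fold minimum, and ranged from 164 to 286 with 1 library left out. Against the other 7 lines the 1126 calls became 2135, 2577 and 100 in the same settings and 161 to 346 with an obp1 library left out. Against hat2 the 26 calls became 362 with no filter, 61 with the DESeq2 Wald test, 97 with only those libraries fitted, 87 at an adjusted p of 0.05 and 7 to 19 with a library left out. OBP1 stayed above Col-0 throughout, at 0.42 to 0.70 with a library left out (adjusted p 0.0285 to 0.232), and passed in 3 settings: no filter (0.56, adjusted p 0.000113), only the groups compared (0.56, adjusted p 0.00773) and the threshold of 0.05 (0.55). SESA5 against Col-0 changed sign without obp1 replicate 2 (−0.19) and without Col-0 replicate 2 (−0.40), within a range of −0.40 to 0.82 with 1 library left out and with no call in any of them. Other settings kept these 3 totals within 1.5 times. Counts within single lists moved further: with only the 4 libraries fitted, starch and sugar rises went from 2 to 5 and electron carrier rises from 5 to 8, the Wald test gave 4 lipid and glyoxylate rises for 2, and at a minimum mean of 50 counts the 2 xylem rises were 0. The contrast with the other 7 lines was not run on the groups compared alone, since it uses 8 of the 9 groups. Replicate numbers did not pair the libraries (r of −0.163 to 0.194 between same-numbered deviations over 36 pairs of genotypes), and the replicate block gave 643, 1027 and 24 calls and 0.54 for OBP1. Of the single-gene values with 1 library left out 158 kept their call status, 64 lost it and 2 changed sign. At 6 to 15 counts a library the difference in GUN4 (0.72 ± 0.49, adjusted p 0.396 by edgeR) was not detectable at this depth, while larger ones at similar counts passed, such as that of BHLH38 at 4 against 24 counts.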

Other observations

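Xylem vessel genes were thinly expressed and partly higher in the libraries labelled obp1. Of 12 tested members of a list added after values were seen, 2 rose against Col-0, beside 2.51% of all genes. Against the mean of the other 7 lines 5 of the 12 rose, beside 795 of 19100 genes. XCP2 and XCP1, cysteine peptidases of dying vessel cells, gave 80 and 118 counts and 65 and 82 counts in the obp1 libraries, against 29 and 28 and 19 and 24 counts in Col-0 (1.46 ± 0.26 and 1.44 ± 0.28, adjusted p 0.0017 and 0.00386 by edgeR). Both obp1 libraries were the highest of the 18 for XCP2. The XCP1 call was lost with any library left out and that of XCP2 with any but obp1 replicate 1. At a minimum mean of 50 counts 2 of the 12 were left to test, with 0 calls. The metacaspase gene MC9 gave 28 and 21 counts against 4 and 6 (1.94 ± 0.48, adjusted p 0.0144 by edgeR), and the wall cellulose synthase genes CESA4 and CESA7 had values of −0.04 and −0.40, with none of the 3 called.

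In the nitrate assimilation list 2 of 10 genes rose and 1 fell, and with any 1 library left out 1 rose and 0 fell. Over all genes tested 2.51% rose and 1.41% fell. With only the 4 libraries fitted 3 of the 10 nitrate genes rose and 0 fell. NIA2, nitrate reductase, read 152 and 164 CPM in the obp1 libraries against 94.7 and 96.7 CPM in Col-0 (0.72 ± 0.10, adjusted p 0.000153 by edgeR) and was above all 16 other libraries, while its paralogue NIA1 read 542 and 526 CPM against 514 and 513 CPM and was not called. GS2, chloroplast glutamine synthetase, rose by 0.52, and the cytosolic glutamine synthetase gene GSR1 fell, at 69.5 and 75.8 CPM against 88.1 and 94.1 CPM (−0.33 ± 0.07, adjusted p 0.00665 by edgeR). In the starch and sugar list 2 of 13 genes rose, SUS1 and SEN1, a dark-inducible gene, and 5 rose with only the 4 libraries fitted. In hormone lists GASA4, a gibberellin-induced gene, rose by 0.39 and ABA1, zeaxanthin epoxidase, by 0.35, as 1 of 19 and 1 of 20 members, shares near that of all genes (3.92%), and none of 14 flavonoid genes was called at an adjusted p of 0.01.

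In the contrast with the other 7 lines, AT2G43860, a pectin lyase-like gene, had 36.8 and 32.1 CPM in the obp1 libraries, 31.4 and 29.3 CPM in Col-0 and 0.253 to 28.0 CPM elsewhere (1.65 ± 0.09, adjusted p 4.39e-09 by edgeR). AT3G29120, a gene with no described product, had 1.12 and 1.63 CPM in the obp1 libraries, 2.1 and 2.35 CPM in Col-0 and 3.22 to 5.24 CPM elsewhere (−1.57 ± 0.16, adjusted p 9.74e-06 by edgeR). Its neighbour AT3G29140 showed the same order, at 1.19 and 1.04 CPM, 2.24 and 2.01 CPM and 2.40 to 3.39 CPM. Both lay below every other library in obp1 and next lowest in Col-0.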
